A study of Homo sapiens with 2 samples.

Results

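Short exons of 28 to 50 bases were taken from the skipped-exon table that the authors built with rMATS. An exon was counted once for each distinct chromosome, strand, start and end, and entered when its end minus its start came to 28 to 50 bases. By this rule 3178 of 67154 listed exons, or 4.73%, were short exons. They lay in 2407 of 11945 genes (20.2%). Of these genes 1848 held 1 short exon, 419 held 2, and 140 held 3 or more. The rule used length alone, so length itself is not a finding.

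The table comes from RNA-seq of polyadenylated RNA of HEK293T cells, a human embryonic kidney line. The control group (1 library) had no treatment and the amiloride group (1 library) received 300 µg/mL of amiloride for 6 h. Amiloride is a potassium-sparing diuretic and an inhibitor of sodium channels. The libraries appear in the table as 1 and 2, and no label ties these numbers to control or amiloride. Their reads and inclusion levels, and therefore their depth and any response to amiloride, were not analysed here, and what follows describes the exons through their position, sequence and annotation.

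Most vertebrate exons are recognised as a unit. The U2 auxiliary factor and U2 snRNP bind the polypyrimidine tract and branch site before the exon, the U1 snRNP binds the 5' splice site (5'SS) after it, and contacts across the exon join them. In a very short exon these complexes crowd each other, and there is little room for exonic enhancers. Short exons are known to depend on their splice sites and on enhancers in the flanking introns.

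Both ends of an exon can be seen in the PTB family, whose proteins bind pyrimidine-rich RNA and repress exons. The lines below are read 5' to 3' on the transcript strand of GRCh37, with the exon in capitals, the last 20 intron bases before it and the first 6 after it in lower case. They are shown because PTBP1, PTBP2 and PTBP3 hold exons of equal length inside the range. The 34-base exons are PTBP1 exon 11 of 15 (chr19:807869-807902, plus strand), PTBP2 exon 10 of 14 (chr1:97271975-97272008, plus strand) and PTBP3 exon 10 of 14 (chr9:114993660-114993693, minus strand). The 31-base exons are exon 2 of PTBP1 (chr19:799413-799443) and exon 2 of PTBP2 (chr1:97189120-97189150).
PTBP1 exon 11: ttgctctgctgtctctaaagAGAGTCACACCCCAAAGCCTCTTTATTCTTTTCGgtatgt
PTBP2 exon 10: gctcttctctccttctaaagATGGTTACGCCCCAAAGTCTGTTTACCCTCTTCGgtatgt
PTBP3 exon 10: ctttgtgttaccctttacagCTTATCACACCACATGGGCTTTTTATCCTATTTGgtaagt
PTBP1 exon 2: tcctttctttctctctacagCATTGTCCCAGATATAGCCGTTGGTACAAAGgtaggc
PTBP2 exon 2: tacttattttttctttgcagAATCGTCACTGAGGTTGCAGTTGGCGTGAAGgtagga

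The 34-base exons of PTBP1 and PTBP2 matched at 25 of 34 bases (73.5%), and at all 9 bases of the 5'SS. PTBP3 exon 10 matched PTBP1 at 22 of 34 bases (64.7%) and PTBP2 at 21 of 34 (61.8%). Each splice site was scored by adding up, over its bases, the log2 ratio of the base's frequency at annotated sites to an equal frequency, on 9 bases for the 5'SS and 23 bases for the 3' splice site (3'SS), so that a higher score is closer to the common site. PTBP1 exon 11 and PTBP2 exon 10 scored 6.22 at the 5'SS, and 15.8% of short exons scored lower. At the 3'SS PTBP1 exon 11 scored 7.14, PTBP2 exon 10 scored 10.50 and PTBP3 exon 10 scored 10.83. Both 34-base exons of PTBP1 and PTBP2 had no further AG in the 200 intron bases before them, whereas the AG nearest to PTBP3 exon 10 left 26 bases free.

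Exon 2 differed from this pattern. PTBP1 exon 2 scored 15.1 and PTBP2 exon 2 scored 15.8 at the 3'SS, above 93.4% and 96.2% of short exons, and these exons matched each other at 19 of 31 bases. Annotated usage was computed as the share of GENCODE transcripts crossing a splice site that use it, rather than skip it or use a competing site. It was 0.93 at both sites of PTBP1 exon 2 and 1 at both sites of PTBP2 exon 2. For the 34-base exons of PTBP1 and PTBP2 it lay between 0.64 and 0.68, and for PTBP3 exon 10 it was 1 at both sites. A further 34-base exon of PTBP3, at chr9:115092721-115092754 on the minus strand, is not in the canonical transcript and had an annotated usage of 0.38.

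Muscleblind proteins, which control exon choice during differentiation, also carry short exons in 2 of their genes. MBNL1 exon 7 of 10 (chr3:152173331-152173366, plus strand) and MBNL3 exon 7 of 9 (chrX:131518691-131518726, minus strand) both have 36 bases. They are shown because their exons and 5'SS resemble each other while their 3'SS do not.
MBNL1 exon 7: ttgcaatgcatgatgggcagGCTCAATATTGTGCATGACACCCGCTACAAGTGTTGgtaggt
MBNL3 exon 7: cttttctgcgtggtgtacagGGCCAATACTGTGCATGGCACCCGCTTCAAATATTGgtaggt

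The exons matched at 29 of 36 bases (80.6%) and at all 9 bases of the 5'SS, where each scored 6.71. Of the 20 intron bases before the exon 11 matched. The 3'SS of MBNL1 scored -0.43, lower than all but 0.41% of short exons, and that of MBNL3 scored 6.64. Pyrimidines made up 44.4% of the 18 bases before the AG in MBNL1 and 66.7% in MBNL3. No other AG lay in the last 132 intron bases before the AG of MBNL1, and in MBNL3 this stretch had 57 bases. The letters TGCATG, the binding motif of RBFOX proteins, were present both in the exon and in the 200 intron bases before it in each gene. In MBNL1 the annotated usage was 0.50 (5'SS) and 0.53 (3'SS), against 0.83 and 0.85 in MBNL3.

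Next, it was asked how the short exons are distributed over lengths. Their number rose with length, from 40 exons of 28 bases to 216 exons of 50 bases. Just outside the range there were 95 exons of 27 bases and 328 of 51 bases, both multiples of 3. Inside it, peaks stood at multiples of 3. The table held 134 exons of 33 bases against 76 of 32 and 77 of 34, and 169 exons of 39 bases against 97 of 38 and 92 of 40. At 45 bases there were 239 exons, between 156 of 44 and 200 of 46.

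In all, 37.7% of short exons (1199 of 3178, 95% Wilson interval 36.1 to 39.4), coding or not, had a length divisible by 3. Skipping a coding exon of such a length keeps the reading frame. Of the 23 lengths in the range 7, or 30.4%, are divisible by 3. The share was 60.4% (interval 56.1 to 64.5) in the 525 exons of up to 27 bases, the microexons. Among the 9301 exons of 51 to 75 bases it was 41.5% (40.5 to 42.5), where 36% of lengths are divisible by 3. Among the 36235 exons of 76 to 150 bases it was 38.4% (37.9 to 38.9), where 33.3% of lengths are. These intervals treat each exon as 1 count and cover counting error only. Exons of 1 gene share their source and are not replicates, and the length classes are compared without a test.

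Splice sites of short exons scored higher than those of longer exons. The median 5'SS score was 8.74 (95% interval of the median 8.63 to 8.77) in short exons, 8.28 (8.23 to 8.31) at 51 to 75 bases, 8.04 (8.0 to 8.06) at 76 to 150 bases and 8.0 (7.97 to 8.05) above 150 bases. At the 3'SS the medians were 10.64 (10.48 to 10.77), 9.86 (9.78 to 9.94), 9.05 (9.01 to 9.10) and 8.90 (8.83 to 8.96) in the same order. For both sites the interval of the short exons did not overlap that of any longer class. It did overlap that of the microexons, at 8.83 (8.74 to 9.06) for the 5'SS and 10.63 (10.07 to 11.08) for the 3'SS. Among exons with an annotated usage of 1 at both sites the microexon medians were higher, at 9.55 and 12.60 against 8.81 and 10.95. The spread within a class was wider than these differences, since the middle 50% of short exons ran from 7.05 to 10.14 (5'SS) and from 8.52 to 12.58 (3'SS).

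Among short exons the 3'SS score fell with length. Its median was 11.38 (11.06 to 11.76) in the 333 exons of 28 to 32 bases, 10.65 (10.36 to 10.90) in the 675 exons of 38 to 42 bases and 10.21 (9.92 to 10.52) in the 850 exons of 47 to 50 bases. The 5'SS score was 8.82 (8.75 to 9.06) in the shortest of these bins and 8.66 (8.39 to 8.79) in the longest, with overlapping intervals. It was lowest at 43 to 46 bases, 8.39 (8.22 to 8.65), where the interval lay below that of 28 to 32 bases.

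On the intron side of the 5'SS, bases that pair with the U1 snRNA were more frequent in short exons than over all listed exons. Intron base 3 was A in 71.5% of short exons (69.9 to 73.1) and in 62.4% of all listed exons, and intron base 4 was A in 76.9% (75.4 to 78.3) and 67.9%. Intron base 5 was G in 81.1% (79.7 to 82.4) against 76.1%, and intron base 6 was T in 60.8% (59.1 to 62.4) against 49.1%. Microexons had similar shares at these bases, 71.0%, 77.1%, 84.2% and 62.3%. On the exon side the order was the other way, with G as the last exon base in 76.4% of short exons (74.9 to 77.8) and 78.9% of all exons. Before the exon, the window from 5 to 20 intron bases was 54.1% T on average, compared with 48.4% over all exons. At 11 bases before the exon T reached 65.4%, against 55.5% in exons of 76 to 150 bases.

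Runs of G, which can bind hnRNP H and F and act as intronic enhancers, were less frequent beside short exons than beside longer ones. The letters GGG were present on the transcript strand within the first 70 intron bases after 46.7% of short exons (45 to 48.5), 49.2% (48.2 to 50.2) of exons of 51 to 75 bases, 54.4% of exons of 76 to 150 bases and 60.1% above 150 bases. In the last 70 intron bases before the exon the shares were 34.7% (33.1 to 36.4) in short exons and 42.3% over all exons. The exons themselves had a median GC content of 45.5% (44.9 to 45.8), near the 45.7% of exons of 51 to 75 bases and below the 48.8% of all exons. Microexons had GGG after 45.3% (41.1 to 49.6) and before 30.7% (26.9 to 34.7) of exons, with a median GC content of 47.1%. The part of GC content in these shares was not tested.

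Motifs of splicing regulators were searched on the transcript strand in the 200 bases on each side. As for GGG, the window was not cut where an intron was shorter, so it could run into the next exon. The shorter flanking intron was under 100 bases for 8.50% of short exons and 6.74% of all exons. TGCATG, bound by RBFOX proteins, lay after 7.21% of short exons (6.36 to 8.16) and 5.98% of all exons, and after 9.90% of microexons (7.63 to 12.8). Before the exon it lay in 6.64% (5.83 to 7.56) and 5.72%. ACTAAC, bound by the STAR-domain protein QKI, lay before 3.43% of short exons (2.85 to 4.12) and 2.39% of all exons. Of the pyrimidine motifs bound by PTB, TCTTTC lay before 17.4% (16.2 to 18.8) against 14.4%, CTCTCT before 13.9% (12.7 to 15.1) against 11.9%, and TTCTCT before 21.1% (19.7 to 22.5) against 17.8%. CTCTCT and TTCTCT share 5 letters and can overlap. The microexons had higher shares, at 27.2%, 18.1% and 26.5% in the same order. Their mean T content was 52.2% from 5 to 20 bases before the exon, against 54.1% in short exons. From 21 to 40 bases before it was 40.8%, against 36.3% in short exons and 33.8% over all exons. The part of base content in the motif shares was not tested. A match is a description of letters and not a binding site.

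The shorter of both flanking introns grew with exon length. Its median was 759 bases (660 to 908) in microexons, 986.5 (924 to 1057) in short exons, 1007 (958 to 1046) at 51 to 75 bases, 1110 (1090 to 1130) at 76 to 150 bases and 1301 (1269 to 1332) above 150 bases. The intervals of short exons and of exons of 51 to 75 bases overlapped. For 270 short exons, or 8.50%, it was under 100 bases, compared with 6.74% of all exons. At the other end, it exceeded 10000 bases for 184 short exons (5.79%) and for 6.21% of all exons. The longest belonged to AUTS2 exon 5 of 19, a 30-base exon at chr7:69900738-69900767 between introns of 301180 and 262787 bases, in a gene named for its link to autism. DACH2, a transcription cofactor gene, followed with introns of 227714 and 137416 bases around a 39-base exon, and SEMA6D, a semaphorin gene, with introns of 130319 and 158848 bases around a 32-base noncoding exon.

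Among short exons the shortest flanking intron belonged to XBP1, a transcription factor of the unfolded protein response. It had 26 bases and followed a listed exon of 43 bases at chr22:29192138-29192180 on the minus strand, which GENCODE does not annotate as an exon. The mRNA of XBP1 is known to lose a short stretch through the endonuclease IRE1 in the cytoplasm, without the spliceosome. The exon is shown because the bases after it are not GT.
XBP1: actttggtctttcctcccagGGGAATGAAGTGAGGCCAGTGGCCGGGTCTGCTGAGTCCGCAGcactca
The 5'SS scored -37.1, the lowest of all short exons, and the 3'SS scored 12.15. NDUFS7 exon 6 of 8, with an intron of 68 bases before it, and AP5Z1 exon 8 of 17, with an intron of 69 bases after it, came next. AP5Z1 encodes a subunit of an adaptor complex of late endosomes, and NDUFS7 a subunit of respiratory complex I.

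Of the 3178 short exons, 3151 (99.2%) lay between AG and GT. Among the other 27, 23 lay between AG and GC, 1 between AG and GG, and 1, that of XBP1, between AG and CA. The remaining 2, both listed in the pseudogene GTF2IP1, read AC and CT on the listed strand, the reverse complement of GT and AG, so the listed strand of these exons may be the opposite one. Introns that begin with AT and end with AC, a kind removed by the minor spliceosome, were searched for and none flanked a short exon. Introns of the minor spliceosome with other ends were not searched for.

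With 1 exon per gene, the highest sums of both scores belonged to ADK exon 8 of 11 (36 bases, chr10:76349040-76349075, plus strand), CD40 exon 8 of 9 (29 bases, chr20:44756969-44756997, plus strand) and ELL exon 2 of 12 (48 bases, chr19:18583645-18583692, minus strand). ADK encodes adenosine kinase, CD40 a receptor of B cells, and ELL an elongation factor of RNA polymerase II. Among exons between AG and GT the lowest sums belonged to ST13 (46 bases, chr22:41244298-41244343, minus strand), SH3PXD2A exon 7 of 15 (45 bases, chr10:105428366-105428410, minus strand) and FGFR4 (40 bases, chr5:176520139-176520178, plus strand). ST13 encodes a cochaperone of HSP70, SH3PXD2A a scaffold of invadopodia and FGFR4 a fibroblast growth factor receptor. They are printed to show both ends of the scale.
ADK exon 8: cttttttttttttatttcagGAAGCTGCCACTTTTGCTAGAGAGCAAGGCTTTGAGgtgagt
CD40 exon 8: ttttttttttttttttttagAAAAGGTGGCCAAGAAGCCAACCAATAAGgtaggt
ELL exon 2: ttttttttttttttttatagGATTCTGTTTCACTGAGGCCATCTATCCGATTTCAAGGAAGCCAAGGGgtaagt
ST13: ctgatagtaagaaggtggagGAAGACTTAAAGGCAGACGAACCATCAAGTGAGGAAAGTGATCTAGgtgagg
SH3PXD2A exon 7: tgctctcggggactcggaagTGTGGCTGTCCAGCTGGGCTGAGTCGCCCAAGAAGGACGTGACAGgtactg
FGFR4: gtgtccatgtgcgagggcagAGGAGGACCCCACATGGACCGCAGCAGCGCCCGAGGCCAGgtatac

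The summed scores were 29.7 for ADK, 29.6 for CD40 and 29.4 for ELL, with an unbroken pyrimidine tract in CD40 (100% of the 18 bases before the AG). They were 0.81 for ST13, 1.60 for SH3PXD2A and 3.65 for FGFR4, with pyrimidines at 27.8%, 50% and 44.4% of these bases. ST13 and FGFR4 also had another AG close by, with 4 and 3 bases between it and the AG of the 3'SS. The ST13 exon is not annotated, and the FGFR4 exon is not in the canonical transcript.

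Short exons were mostly coding. GENCODE placed coding sequence in 2942 of 3178 (92.6%, interval 91.6 to 93.4), against 94.5% of all listed exons. A further 209 were noncoding, 141 of them in protein-coding genes and 56 in long noncoding RNA genes, and 27 were not annotated as exons. Both splice sites were annotated for 99.1% of short exons (98.7 to 99.4) and 99.4% of all exons. Of 2841 short exons with a defined reading frame over their whole length, 1099 (38.7%) had a length divisible by 3, and 867 and 875 left 1 and 2 extra bases. Skipping would therefore shift the frame for 61.3% of them. None of these 2841 held a stop codon in its annotated frame, and 14 of 60126 such exons did over all lengths, as the annotation of coding sequence largely fixes. Read in any of the 3 frames, 81.4% of short exons held at least 1 stop codon, compared with 95.1% of all exons. A stop in every frame was held by 27 (0.85%), compared with 4.23%. A shorter exon has fewer codons that could be a stop, so the rule on length largely fixes both comparisons. The share with at least 1 stop was 55.6% in microexons and 98.7% above 150 bases.

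The phase of an exon counts the codon bases read before each of its ends. Of the coding short exons 613 (21.6%, interval 20.1 to 23.1) began and ended between codons. The share was 28% (24.2 to 32.2) in microexons and 25.7% (24.8 to 26.6) in exons of 51 to 75 bases. Exons that began and ended after the first codon base made up 10.6% (9.55 to 11.8) of short exons. This compares with 23.4% (19.9 to 27.4) of microexons and 9.59% (8.98 to 10.2) at 51 to 75 bases. Both kinds of exon need a length divisible by 3. Of the lengths from 28 to 50 bases 30.4% are divisible by 3, against 36% of those from 51 to 75 bases. The ranges thus do not give these shares an equal footing.

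Annotated usage, here the mean of both splice sites, had a median of 0.93 (0.92 to 0.94) in short exons. The median was 0.75 (0.71 to 0.80) in microexons, 0.96 (0.95 to 0.97) at 51 to 75 bases and 1 at 76 to 150 bases. Above 150 bases it was 0.94, with an interval that overlapped that of short exons, so the medians did not rise steadily with length. Of 3176 short exons with a value, 1385 (43.6%) had a usage of 1 at both sites and 328 (10.3%) had a mean usage under 0.5. Over all listed exons these shares were 48.3% and 6.21%. This measure weighs every annotated transcript alike and says nothing of how often HEK293T cells use the exon.

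Frame and splice site score both moved with annotated usage. Among short exons with usage of 1 at both sites 32.2% (29.8 to 34.7) had a length divisible by 3, among those from 0.5 to below 1 39.5% (37 to 42) and among those under 0.5 53.0% (47.6 to 58.4). Over all listed exons the same groups had 37.6%, 39.2% and 45.4%. The median 3'SS score of short exons was 10.95 (10.77 to 11.12), 10.55 (10.32 to 10.75) and 9.21 (8.85 to 9.71) in this order, and the median 5'SS score was 8.81 (8.75 to 8.86), 8.74 (8.57 to 8.77) and 8.06 (7.69 to 8.29). Over all exons the 3'SS medians ran from 9.31 to 8.66, so that short exons scored higher than all exons in each usage group.

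Of the 20 genes looked up by name, 13 held a short exon, 21 exons in all, and MBNL2, QKI, FAS, ATM, SMN2, OPA1 and KIF1B held none. Of all listed genes 20.2% held one. The 20 genes were chosen with earlier results of these data known, so their count does not measure enrichment. BRCA1 and BRCA2, both needed for repair of DNA breaks by homologous recombination, held 5. BRCA1 exon 8 of 23 in the canonical transcript (46 bases, chr17:41249261-41249306, minus strand) had a 5'SS score of 11.88, above 96.1% of short exons, and a 3'SS score of 1.52, above 1.04%. Its sequence is given beside that of BRCA1 exon 18 (41 bases, chr17:41215350-41215390, minus strand) to show the run of G in the tract of the former.
BRCA1 exon 8: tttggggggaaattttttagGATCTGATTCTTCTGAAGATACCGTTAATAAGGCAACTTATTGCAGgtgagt
BRCA1 exon 18: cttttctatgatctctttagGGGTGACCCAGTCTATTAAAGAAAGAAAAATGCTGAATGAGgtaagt
BRCA1 exon 18 had a 5'SS score of 11.73 and a 3'SS score of 9.92. Pyrimidines made up 50% of the 18 bases before the AG of exon 8 and 83.3% before that of exon 18. Annotated usage was 0.77 for exon 8 and 0.96 for exon 18. In BRCA2 exons 5 and 8 had 50 bases and exon 6 had 41, with an annotated usage of 1 at every site. The intron between BRCA2 exons 5 and 6 had 91 bases. The 5'SS scored 8.86 in exon 5, 9.59 in exon 6 and 5.81 in exon 8.

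NUMB, an endocytic adaptor and Notch antagonist, held a 33-base exon (exon 6 of 13), with scores of 9.55 and 11.96 and an annotated usage of 0.53. ITSN1, a scaffold of clathrin-coated pits, held a 46-base exon (exon 26 of 40) with scores of 10.50 and 9.12. CLTB, a clathrin light chain, held a 47-base exon with scores of 11.02 and 14.08. RBFOX2, itself the protein that binds TGCATG, held a 40-base exon (exon 11 of 14) with scores of 7.87 and 7.53, and TGCATG was present in the 200 bases before it. CD47, the surface protein that inhibits phagocytosis, held exons of 33 and 32 bases. The 33-base exon, exon 10 of 11, had a 3'SS score of 4.51 and an annotated usage of 0.40, and the 32-base exon, exon 8, had 10.27 and 1. DMD, the dystrophin gene, held exon 78 of 79 with 32 bases and exon 71 with 39 bases. The 5'SS of DMD exon 71 scored 3.12, lower than all but 1.57% of short exons, and its annotated usage was 0.39 (5'SS) and 0.35 (3'SS).

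**Figure D1:**
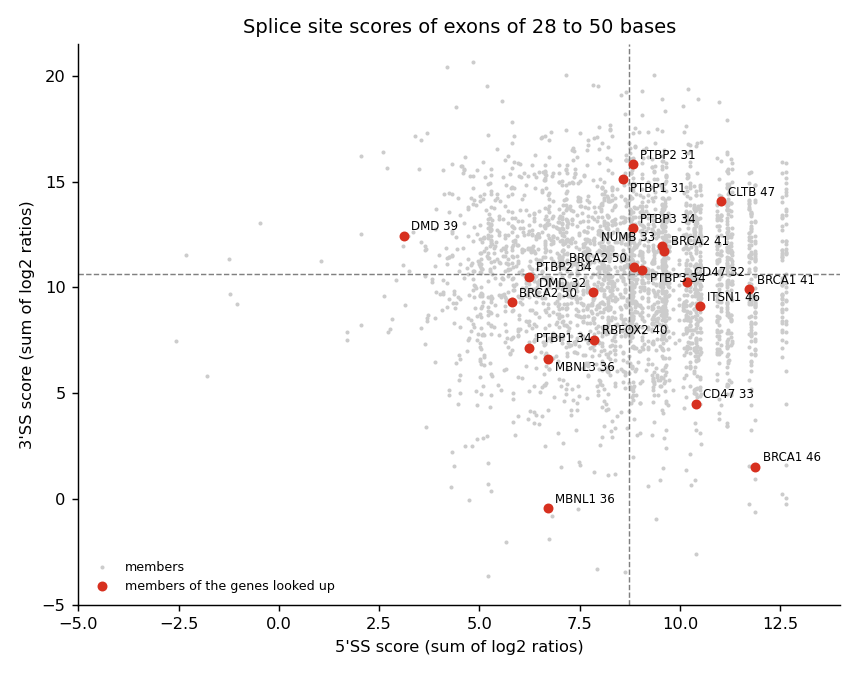
5'SS score (horizontal axis) against 3'SS score (vertical axis) of the short exons in grey, with the 21 short exons of the genes looked up in red and labelled by gene and length in bases. Dashed lines are the medians of short exons, 8.74 and 10.64, and 29 exons lie outside the axes. MBNL1 and the 46-base exon of BRCA1 lie lowest among the labelled exons at the 3'SS.

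Short exons were then counted in 4 gene lists. Of 50 listed splicing regulators, 24 (48%) held a short exon, among them HNRNPC, SRSF3, SRSF7, TIA1, U2AF1 and U2AF2. Of 56 genes of the cytoskeleton and its motors 26 (46.4%) did, among them ANK2, ANK3, MYO6 and UTRN, and of 54 genes of endocytosis and membrane traffic 21 (38.9%) did, among them BIN1, CLTA and DNM1. Of 51 genes of the DNA damage response 10 (19.6%) did, near the 20.2% of all listed genes. Genes differ in the number of listed exons. Counted over exons, short exons were 8.14% of the 381 exons of splicing regulators, 5.21% of the 672 exons of the cytoskeleton list, 4.54% of 595 in membrane traffic and 2.82% of 531 in the DNA damage response, against 4.73% of all exons. In the cytoskeleton list 21 of 35 short exons (60%) had a length divisible by 3 and their median annotated usage was 0.67. In the DNA damage list it was 3 of 15 (20%) and 0.91. Splicing regulators had 15 of 31 (48.4%) and 0.93, and the membrane traffic list had 13 of 27 (48.1%) and 0.85. Over all short exons the share was 37.7% and the median usage 0.93.

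Genes with 5 or more short exons, 17 in all, were chosen after the counts were seen. COL25A1, COL27A1 and DMKN held 8 each and COL13A1 held 7. Collagens form a triple helix in which glycine fills every position facing the axis, and their exons are known to be built from a unit that encodes glycine and its neighbours. Over 12 collagen genes 40 short exons were listed, 17 of 45 bases and 12 of 36 bases. Of the 40, 29 (72.5%, interval 57.2 to 83.9) had a length divisible by 9, against 11.9% of all short exons. In COL13A1, COL25A1 and COL27A1, whose counts led to this family, it was 21 of 23, and in the other collagen genes 8 of 17 (47.1%, interval 26.2 to 69.0). All 8 short exons of COL27A1 did. Of the other genes COL7A1 was also among those with 5 or more short exons, and 4 of its 5 had such a length. The 8 of 17 therefore include a gene picked by its count. The 3 exons of COL27A1 below are shown without introns, with each codon of GG and any base in capitals. They are exon 8 of 61 (chr9:116967382-116967426), exon 24 (chr9:117008146-117008190) and exon 53 (chr9:117063564-117063599), all on the plus strand.
COL27A1 exon 8: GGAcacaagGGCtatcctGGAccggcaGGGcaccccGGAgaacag
COL27A1 exon 24: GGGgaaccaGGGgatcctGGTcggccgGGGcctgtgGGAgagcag
COL27A1 exon 53: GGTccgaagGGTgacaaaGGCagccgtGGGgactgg
In 29 of 40 collagen exons 1 codon in every 3 began with GG throughout, and this held for 1 of 2801 other coding short exons. Codons beginning with GG were 29.4% of codons in collagen exons and 5.75% in the others.

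CD46, which protects cells from complement, held 5 short exons of 8 listed exons, all coding and all divisible by 3. Its 45-base exons at chr1:207940952-207940996 and chr1:207941124-207941168, plus strand, lie 127 bases apart and are shown for their likeness.
CD46 first exon of the pair: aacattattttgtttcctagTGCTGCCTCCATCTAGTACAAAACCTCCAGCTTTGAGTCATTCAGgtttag
CD46 exon 7: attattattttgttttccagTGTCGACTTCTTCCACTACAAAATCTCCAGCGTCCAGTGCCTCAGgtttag
They matched at 31 of 45 bases (68.9%), at 16 of the 20 bases before and at all 9 bases of the 5'SS, which scored 2.05 in each. The 3'SS scored 8.24 and 12.51, and annotated usage was 0.18 and 0.47. DNMT1, the maintenance DNA methyltransferase, held 4 exons of 35 bases, exons 8, 10, 12 and 14 of 41. They matched one another at 23 to 26 of 35 bases, and each had a length that shifts the frame.
DNMT1 exon 8: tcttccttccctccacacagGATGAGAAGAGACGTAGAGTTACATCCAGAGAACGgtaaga
DNMT1 exon 10: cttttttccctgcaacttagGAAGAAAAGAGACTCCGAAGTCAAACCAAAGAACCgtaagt
DNMT1 exon 12: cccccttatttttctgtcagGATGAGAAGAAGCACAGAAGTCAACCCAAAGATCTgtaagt
DNMT1 exon 14: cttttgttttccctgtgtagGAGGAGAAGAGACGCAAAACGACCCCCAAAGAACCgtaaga
The lines are on the minus strand, at chr19:10284547-10284581, chr19:10279006-10279040, chr19:10274002-10274036 and chr19:10271060-10271094. Their 5'SS scores were 8.58, 5.02, 5.29 and 3.63 in this order, all below the median of 8.74.

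SNHG1 and GAS5, noncoding genes that host small nucleolar RNAs in their introns, held 7 of 9 and 6 of 10 listed exons as short exons. In SNHG1 they ran from 29 to 47 bases, and the introns beside them from 129 to 454 bases. The median 3'SS score was 12.51 in SNHG1 and 9.64 in GAS5. Of all short exons the most events, 14, belonged to exons of GAS5 (30 and 38 bases) and UBE2F (30 bases), the latter a gene for an enzyme of neddylation. SLC25A26, the mitochondrial carrier of S-adenosylmethionine, had a 45-base exon in 12 events, as many as 2 further exons of GAS5. Short exons entered 5696 of 113456 events, and 1788 (56.3%) entered exactly 1.

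In the table of mutually exclusive exons 1758 short exons (55.3%, interval 53.6 to 57.0) took part, the same share as over all listed exons (55.3%). Of 30127 distinct pairs 155 joined 2 short exons and 18 of these joined exons of equal length. Of the 155 pairs, PTBP1 exons 2 and 11 formed 1, of unequal length at 31 and 34 bases. GAS5 exons formed several. Exactly 1 of the 2 splice sites was shared with another listed exon for 137 short exons (4.31%, interval 3.66 to 5.07) and for 4.90% of all exons.

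Some short exons had copies. For 30 short exons the same sequence was listed as a short exon of another gene, with 13 distinct sequences among them. GTF2I, a general transcription factor, shared exons of 29 and 42 bases on chromosome 7 with its pseudogene GTF2IP1, and DDX11, a DNA helicase, had a 46-base exon with a copy. Reads of such exons cannot be told apart by the exon alone.

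Finally, the effective lengths in the table show how reads could report a short exon. The skipping form had 125 positions for every event, as for reads of 126 bases, and the inclusion form had these plus the length of the exon in 100% of short exons. It ran from 153 positions at 28 bases to 175 at 50 bases, which is 1.22 to 1.40 times the skipping form, against a median of 1.91 over all exons. From the same lengths, 97 of 153 read positions (63.4%) would span both junctions of a 28-base exon and 75 of 175 (42.9%) those of a 50-base exon. For 28624 listed exons (42.6%), of 125 bases or more, no read of this length could.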

How the data were processed

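The authors aligned reads with STAR 2.5.1 to hg19, by the submitters' processing notes, and compared the libraries with rMATS. The rMATS version is not given in the sources used here. Of the 5 deposited tables, exon coordinates and effective lengths were used. The 30 columns that hold reads or inclusion of a numbered library were left out, since no label names the condition of a number, and so were the 15 columns with the authors' p-value, FDR and inclusion level difference. No per-library value, treatment effect or test is therefore given.

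Coordinates are 1-based on GRCh37. Scores used 300873 annotated 5'SS with GT and 300290 annotated 3'SS with AG of GENCODE release 44 lifted to GRCh37, with a pseudocount of 0.5. An exon with several gene symbols, 7 of the short exons, took the symbol sorting first. Each flanking intron is the shortest over the exon's events. Annotated usage applies the splice site usage ratio to transcripts instead of reads. Sequence named in the text was read from the reference.

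Named exons were all short exons of 20 genes, those with the 3 highest and 3 lowest score sums among exons between AG and GT (1 per gene), the 3 with the most events (1 per gene), up to 5 copies in other genes, up to 5 beside introns from AT to AC, the 3 shortest and 3 longest shorter introns (1 per gene), and the first by symbol at 28 and 50 bases. The exons and lists were chosen with earlier results of these data known. Shares carry 95% Wilson intervals and medians order-statistic intervals. Scripts were tested on simulated data. Python 3.11.15, numpy 2.4.6, pandas 2.3.3 and matplotlib 3.10.9 were used.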

Additional observations from a re-analysis of the deposited data

How the results depend on the processing

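Each of the 12 shares and medians was recomputed under the alternatives, 66 values in all, of which 58 stayed inside the 95% interval of the reported value. The share with a length divisible by 3 was 45.1% at 30 to 48 bases, a range that begins and ends at a multiple of 3. With exons of exactly 1 event, the median 3'SS score was 10.42, the share with both sites annotated 98.7% and the share in mutually exclusive events 25.2%. With 1 short exon per gene, an alternative chosen after seeing the data, that share was 53.5%. Without exons that overlap another short exon, 3.21% shared exactly 1 splice site, by construction. With the longest introns over the events the median shorter intron was 1290.5 bases, and in a window of 100 bases GGG followed 57.6% of short exons. No paired analysis was possible because no value of a library entered and a single library stands for each group.

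With base frequencies taken from listed exons that are not short exons, the medians were 8.69 (5'SS) and 10.71 (3'SS), against 8.37 and 9.91 at 51 to 75 bases. With usage of 1 at both sites they were 8.81 and 10.95, against 8.35 and 9.93. Microexons with such usage had 9.55 and 12.60, above the short exons.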

Other observations

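The first short exons by gene symbol at the ends of the range were those of ADAMTS3, a procollagen protease, and AAGAB, an adaptor protein chaperone. The 28-base exon of ADAMTS3, exon 2 of 22, had scores of 9.58 (5'SS) and 12.83 (3'SS). The 50-base exon of AAGAB, exon 9 of 10, had scores of 10.40 and 6.94. Both had an annotated usage of 1 at both sites. At the edges of the rule the median 3'SS score was 11.70 at 27 bases and 11.53 at 28 bases, and 9.95 at 50 bases and 10.54 at 51 bases.

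The stretch free of AG before the 3'SS had a median of 32 bases (32 to 33) in short exons, 41 (38 to 43) in microexons and 31 (31 to 32) at 51 to 75 bases. Purines made up a median of 58.3% of a microexon, 55.6% of a short exon, 54.3% at 51 to 75 bases and 51.8% above 150 bases.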
